A study of Mus musculus with 2 samples.

Results

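Neutrophils carry their killing proteins ready-made in granules, and 10 genes for such proteins or for proteins made at the same stages were followed here in WT and PU.1 KO mouse skin wounds. The genes were taken by symbol, 10 of 24346 listed genes, and grouped by granule class or by stage of maturation. The azurophil class holds 4 genes, Mpo, Elane, Prtn3 and Ctsg. The specific class holds 4 genes, Ltf, Camp, Ngp and Chil3. Mmp8 stands for the gelatinase stage and Retnlg for the mature neutrophil. Measured values had no part in the choice by symbol, but earlier results of these data were known when the genes were picked.

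The wounds were full-thickness cuts in the back skin of newborn C57BL/6J mice, made the day after birth and harvested 24 h later. One group was wild type (labelled WT) and the other carried the PU.1 deletion (labelled PU.1_KO, from here on PU.1 KO), and the pups were littermates. PU.1 is a transcription factor of the blood lineages encoded by Spi1. The study describes mice without it as lacking macrophages, neutrophils, T cells and mast cells. Each genotype is represented by 1 library of whole wound tissue, so there is no replicate, no spread between animals and no p-value for any value given here. The sources do not give the sex of the pups or how many were pooled, and the wounds are called incisional in the methods but excisional in the design text.

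Granule proteins are made in waves while a neutrophil matures in the bone marrow. Promyelocytes make the azurophil proteins, myelocytes and metamyelocytes make the specific granule proteins, later stages make the gelatinase granules, and each gene is switched off again as the next wave begins. Mature neutrophils are known to hold much azurophil protein but little of its mRNA. PU.1, the C/EBP factors and RUNX1 are known regulators of these genes.

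The stretches before the azurophil genes are shown because PU.1 is the factor removed in these mice, and those of Ltf, Ngp, Mmp8 and Retnlg because these genes were listed at 0 without it. Each is the 250 bases before the annotated start, taken from RefSeq on GRCm38.p6, the assembly of mm10, and read 5′ to 3′ on the strand of the gene. Capitals mark letters found by a search of both strands for GAGGAA or its longer form GAGGAAGT, which are known PU.1 binding letters, and for TTGCNNAA, the letters of C/EBP factors. A match found on the other strand appears as its reverse complement.
Mpo (chr11:87793534-87793783, plus strand): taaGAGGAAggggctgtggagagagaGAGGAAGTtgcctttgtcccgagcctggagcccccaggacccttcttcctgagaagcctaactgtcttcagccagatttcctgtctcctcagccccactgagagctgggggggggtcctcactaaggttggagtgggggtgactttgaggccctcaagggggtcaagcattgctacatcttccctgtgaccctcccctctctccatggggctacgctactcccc
Elane (chr10:79886062-79886311, plus strand): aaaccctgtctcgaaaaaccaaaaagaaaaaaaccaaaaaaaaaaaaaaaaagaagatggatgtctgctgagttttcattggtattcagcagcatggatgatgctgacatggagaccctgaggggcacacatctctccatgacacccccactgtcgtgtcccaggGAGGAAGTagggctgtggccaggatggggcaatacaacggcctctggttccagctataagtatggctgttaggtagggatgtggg
Prtn3 (chr10:79879417-79879666, plus strand): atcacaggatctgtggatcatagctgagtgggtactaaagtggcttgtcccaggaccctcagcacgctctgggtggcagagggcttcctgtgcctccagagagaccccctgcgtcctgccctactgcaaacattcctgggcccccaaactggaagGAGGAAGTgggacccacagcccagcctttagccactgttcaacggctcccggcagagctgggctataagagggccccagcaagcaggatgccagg
Ctsg (chr14:56102575-56102824, minus strand): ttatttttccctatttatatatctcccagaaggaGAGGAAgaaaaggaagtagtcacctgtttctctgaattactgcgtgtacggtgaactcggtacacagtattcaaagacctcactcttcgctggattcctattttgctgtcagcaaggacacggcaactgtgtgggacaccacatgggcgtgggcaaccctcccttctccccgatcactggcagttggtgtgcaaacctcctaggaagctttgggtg
Ltf (chr9:111019042-111019291, plus strand): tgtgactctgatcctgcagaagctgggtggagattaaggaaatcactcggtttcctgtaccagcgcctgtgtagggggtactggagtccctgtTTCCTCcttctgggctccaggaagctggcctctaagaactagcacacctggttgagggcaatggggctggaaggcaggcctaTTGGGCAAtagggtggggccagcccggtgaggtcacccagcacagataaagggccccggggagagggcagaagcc
Ngp (chr9:110419558-110419807, plus strand): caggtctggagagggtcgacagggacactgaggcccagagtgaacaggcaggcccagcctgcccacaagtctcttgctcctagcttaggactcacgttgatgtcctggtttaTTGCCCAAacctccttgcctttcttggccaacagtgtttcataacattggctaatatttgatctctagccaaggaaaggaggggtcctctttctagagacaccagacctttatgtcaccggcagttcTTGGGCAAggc
Mmp8 (chr9:7558179-7558428, plus strand): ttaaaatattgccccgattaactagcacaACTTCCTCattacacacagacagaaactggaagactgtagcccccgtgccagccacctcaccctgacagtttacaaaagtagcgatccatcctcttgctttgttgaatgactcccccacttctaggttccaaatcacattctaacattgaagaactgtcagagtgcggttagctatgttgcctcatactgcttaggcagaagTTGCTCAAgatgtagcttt
Retnlg (chr16:48872358-48872607, plus strand): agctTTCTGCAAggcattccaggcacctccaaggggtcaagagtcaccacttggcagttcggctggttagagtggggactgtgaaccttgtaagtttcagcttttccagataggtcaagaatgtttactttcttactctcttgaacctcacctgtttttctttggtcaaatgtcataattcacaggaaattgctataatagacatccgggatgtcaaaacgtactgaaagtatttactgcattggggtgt

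The search covered 250 bases before to 50 bases after each start, a window of 300 bases, and all 10 genes had one. GAGGAA was found in 6 of the 10 windows, among them all 4 azurophil genes, Ltf and Mmp8, while 28.3% of all 32851 RefSeq promoters of this length hold it. The longer GAGGAAGT, which contains GAGGAA, was found in 4 of 10, against 3.20% of all promoters. It began 224 bases before the start of Mpo, 85 before Elane, 95 before Prtn3 and, on the other strand, 221 before Mmp8. Ctsg held only the short form, 216 bases before its start. TTGCNNAA was found in 4 of 10 windows against 10.8% of all promoters, namely in Ltf, Ngp, Mmp8 and Retnlg, and in none of the 4 azurophil windows. In Ngp it occurred 2 times, beginning 138 and 11 bases before the start. TGTGGT, the letters of RUNX factors, was found in Ctsg and Ltf, 2 of 10, against 16.8% of all promoters. The windows of Camp and Chil3 held none of the 4 searched sets of letters. These matches describe the sequence and say nothing about binding in the wounds.

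**Figure D1:**
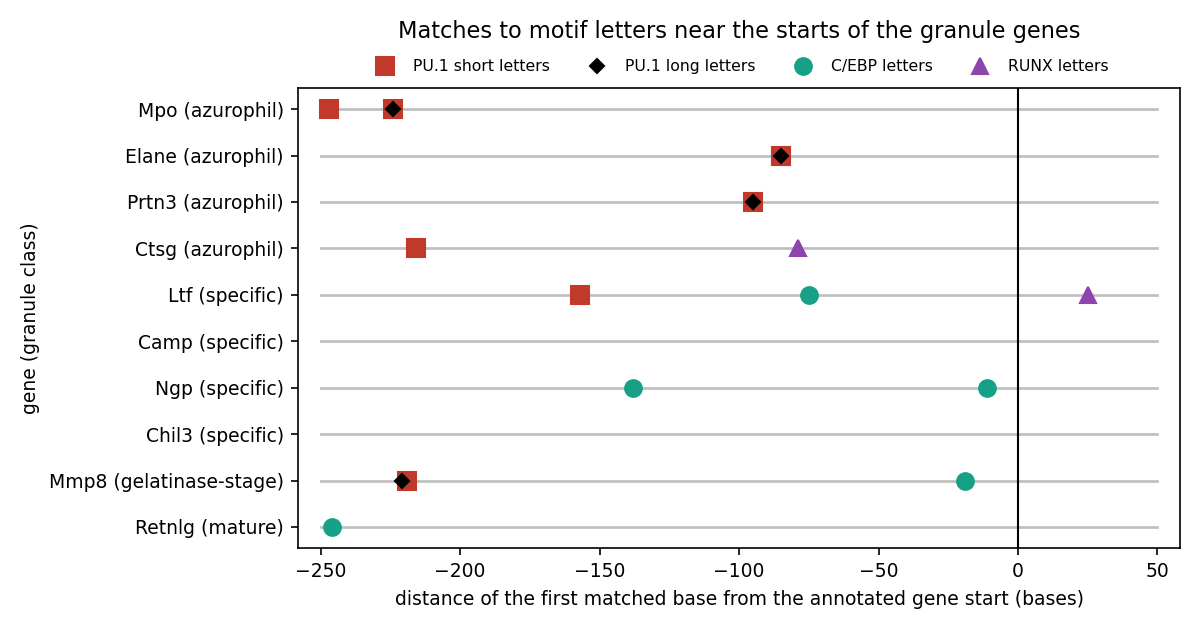
Positions of the matched letters in the promoter windows of the 10 granule genes; the horizontal axis is the distance of the first matched base from the annotated start, in bases, the vertical axis gives the gene and its granule class, and each symbol is 1 match on either strand. The long PU.1 letters are seen in Mpo, Elane, Prtn3 and Mmp8, the C/EBP letters in Ltf, Ngp, Mmp8 and Retnlg, and no match in Camp and Chil3.

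Values are FPKM, fragments scaled to transcript length and to the mapped fragments of the library. Levels are set side by side between genes and between libraries on that scale. The comparison between genes depends on the transcript lengths the authors used, which are not given. Steps in the low values gave a depth of about 1.38e+07 fragments for WT and 1.58e+07 for PU.1 KO, from which the reads behind each value were estimated. Intervals quoted with a ratio are exact binomial intervals at 95% on those reads and cover counting error only. Genes that differed at least 2-fold between the libraries, once values below 0.1 FPKM had been raised to 0.1, were called lower or higher. Spi1 was 35.4 FPKM in WT against 1.45 FPKM in PU.1 KO, where about 42 reads remained, so the targeted gene was 24.3-fold lower (17.9 to 34.1). The skin was present in both libraries, since none of 10 keratinocyte and 8 fibroblast markers differed 2-fold. Xist was listed at 0 in WT and at 9.48 FPKM in PU.1 KO, and the Y-linked Eif2s3y was at 38.5 FPKM in WT and 0 in PU.1 KO, so genotype and the sex of the pups cannot be told apart in any value that follows.

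Of the 10 granule genes 9 were lower in PU.1 KO and none was higher, where 4.34% of all listed genes were lower and 2.32% higher. Mpo stayed inside the 2-fold limit. At a 10-fold limit 7 of the 10 were lower, all but Mpo, Ctsg and Camp, where 1.20% of all listed genes were. The counting intervals of Elane (1.63 to 498) and Prtn3 (5.01 to 168) reached below 10. The summed level of the 10 granule genes was 738 FPKM in WT against 24.4 FPKM in PU.1 KO, or 3.31% of the WT sum. Camp alone made up 97.9% of what was left. The median log2 ratio of PU.1 KO over WT was −6.07 over the 10 genes, with values below 0.1 FPKM raised to 0.1, against 0.00 over all listed genes and −0.01 over the 12987 genes of at least 1 FPKM in WT. With no floor, and the 4 genes listed at 0 set to the value of 3 reads, the median was −6.18. The size depends on the floor, since with 1 FPKM in its place the median was −3.11, and with a pseudocount of 1 FPKM it was −3.23. Both of these left 7 genes lower and ended the calls of Elane and Ctsg. Without Ngp, the highest gene, 8 of 9 were lower, the median was −4.29 and the PU.1 KO sum was 5.71% of WT. The interval of the ratio could be formed for 6 of the 10 genes, and it lay above 1 for 4 of these and above 2 for 3. In whole tissue, fewer neutrophils and less RNA per neutrophil cannot be told apart.

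**Figure D2:**
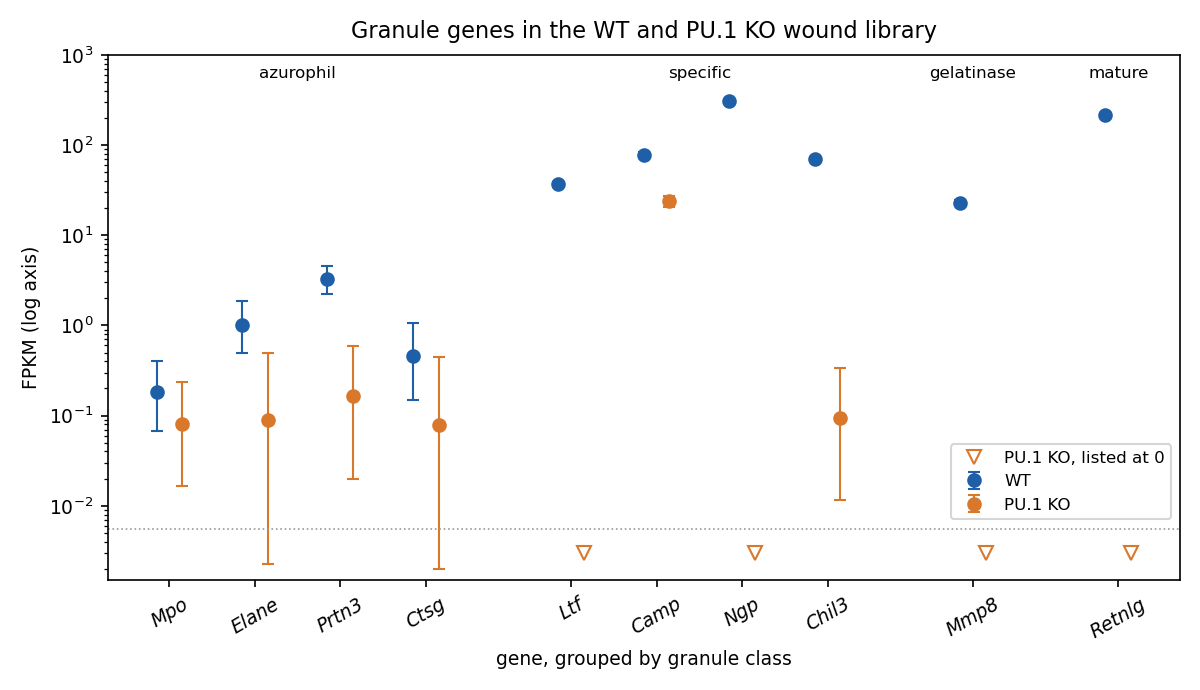
FPKM (log axis) of the 10 granule genes, grouped by granule class, in the 1 WT library (blue) and the 1 PU.1 KO library (orange); bars are 95% counting intervals from the estimated reads, and open triangles under the dotted line are genes listed at 0 in PU.1 KO. The 4 azurophil genes were at 3.24 FPKM or less in WT, the other 6 at 23.1 FPKM or more, and of those 6 only Camp stayed above 1 FPKM in PU.1 KO.

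The azurophil genes were the lowest of the set even in the WT wound. Together they came to 4.90 FPKM in WT, or 0.663% of the sum over the 10 genes, and to 0.414 FPKM in PU.1 KO. The highest of them, Prtn3, lay 7.13-fold under Mmp8, the lowest of the other 6. Their median log2 ratio was −2.77 and 3 of 4 were lower.

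Prtn3 codes for proteinase 3, a serine protease that cuts matrix proteins and cathelicidin. It was 3.24 FPKM in WT against 0.166 FPKM in PU.1 KO, about 34 against 2 reads, a ratio of 19.5 (5.01 to 168). Elane, neutrophil elastase, was 1.02 FPKM in WT against 0.0887 FPKM in PU.1 KO, about 10 against 1 read, a ratio of 11.5 (1.63 to 498). Both intervals lay above 1. Prtn3 (chr10:79879667-79883174) and Elane (chr10:79886312-79888216) lie 3138 bases apart in one protease cluster, and in the WT wound Prtn3 was 3.17-fold the level of Elane. Next to them sits Cfd, adipsin, a serine protease of the same family that fat cells make, which was 504 FPKM in WT against 162 FPKM in PU.1 KO.

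Ctsg codes for cathepsin G, a granule protease that mast cells also use, and lies in the granzyme and mast cell protease cluster (chr14:56099885-56102574). It was 0.456 FPKM in WT against 0.0795 FPKM in PU.1 KO, about 5 against 1 read. The ratio of 5.74 passed the 2-fold rule, but its interval of 0.643 to 272 included 1. Mpo, myeloperoxidase, which makes hypochlorous acid from hydrogen peroxide, was the lowest granule gene of the WT wound (chr11:87793784-87804412). It was 0.185 FPKM in WT against 0.0805 FPKM in PU.1 KO, about 6 against 3 reads, with a ratio of 2.30 before the floor (0.491 to 14.2) and a log2 ratio of −0.89 after it. For Mpo and Ctsg a difference between the libraries was therefore not detectable at this depth.

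The specific granule genes were the bulk of the signal, 495 FPKM in WT, 67.0% of the sum over the 10 genes, and 24.0 FPKM in PU.1 KO. All 4 were lower, from a Camp level that remained at 30.8% of WT to levels listed at 0. Ngp, neutrophilic granule protein, a cystatin-like relative of the cathelicidins (chr9:110419808-110423012), was the highest of the 10 genes in WT. It was 311 FPKM there, about 4371 reads, and listed at 0 in PU.1 KO, where 3 reads would have given 0.186 FPKM. Only the microRNA gene Mir719 had a higher WT level among all genes listed at 0 in PU.1 KO, and its reads were not estimated. FPKM is scaled to length, so a high value of a very short gene can rest on few reads.

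Ltf codes for lactoferrin, which binds iron and withholds it from bacteria (chr9:111019292-111042766). It was 37.1 FPKM in WT, about 1299 reads, and listed at 0 in PU.1 KO, where 3 reads would have given 0.0746 FPKM. Chil3, also called Ym1, is a chitinase-like protein of neutrophil precursors that alternatively activated macrophages make as well (chr3:106147554-106167564). It was 69.6 FPKM in WT against 0.0945 FPKM in PU.1 KO, about 1283 against 2 reads, a ratio of 737 (204 to 6091). Its close copy Chil4 was 0.610 FPKM in WT against 0.193 FPKM in PU.1 KO, and the split of reads between these similar genes is uncertain.

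Camp, the cathelicidin precursor that is cut to an antimicrobial peptide, was the exception among the 6 members of the later classes (chr9:109847377-109849456). It was 77.6 FPKM in WT against 23.9 FPKM in PU.1 KO, about 596 against 211 reads, a ratio of 3.24 (2.77 to 3.81). The interval of Camp lay far below that of Chil3, and its upper end of 3.81 was also under the lower end of Prtn3, 5.01. In WT Ngp was 4.0-fold and Ltf 0.478-fold the level of Camp. In PU.1 KO only Camp was above 0.1 FPKM among the 4 members of the specific class. Keratinocytes of injured skin make Camp too, and the 10 keratinocyte markers summed to 16289 FPKM in WT against 18465 FPKM in PU.1 KO, with none listed at 0. Their part in the remaining Camp level was not tested.

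The level of Camp relative to S100a8 and S100a9, the subunits of calprotectin, which neutrophils and activated keratinocytes both make, was similar in both libraries. It was 0.0118 of that of S100a8 in WT and 0.0112 in PU.1 KO, and 0.0146 and 0.0158 of that of S100a9. S100a8 was 6600 FPKM in WT against 2129 FPKM in PU.1 KO, and S100a9 was 5311 FPKM and 1516 FPKM. Lcn2, lipocalin 2, a specific granule protein that also comes from epithelium, was 1125 FPKM in WT against 779 FPKM in PU.1 KO, so the level of Camp relative to Lcn2 was 0.0690 in WT and 0.0307 in PU.1 KO.

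Mmp8, neutrophil collagenase, which cuts fibrillar collagen, was 23.1 FPKM in WT, about 706 reads, and listed at 0 in PU.1 KO, where 3 reads would have given 0.0853 FPKM (chr9:7558429-7568486). Among other genes of the metalloprotease cluster the differences were smaller. Mmp12, macrophage elastase, was 0.339 FPKM in WT against 0.0553 FPKM in PU.1 KO, about 16 against 3 reads, a ratio of 6.13 (1.75 to 32.8). Mmp10 was 2.65 FPKM in WT against 2.06 FPKM in PU.1 KO, Mmp3 was 56.1 and 39.8 FPKM, and the other collagenase Mmp13 was 16.7 and 13.6 FPKM. Mmp9, gelatinase B, which gives the gelatinase granule its name but is made by keratinocytes and other wound cells too, was 34.5 FPKM in WT against 19.3 FPKM in PU.1 KO.

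Retnlg, a resistin-like secreted protein of mature neutrophils, was 215 FPKM in WT, 29.2% of the sum over the 10 genes and exceeded only by Ngp (chr16:48872608-48874498). It was listed at 0 in PU.1 KO against about 1165 reads in WT, and 3 reads would have given 0.483 FPKM. Of its relatives, Retn, resistin, was 166 FPKM in WT against 30.3 FPKM in PU.1 KO, Retnla, a gene of alternatively activated macrophages and fat, was 12.7 and 1.31 FPKM, and Retnlb was listed at 0 in both libraries.

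Ltf, Ngp, Mmp8 and Retnlg, 4 of the 10 granule genes, were listed at 0 in PU.1 KO, and none of the 10 was listed at 0 in WT. The WT levels of the 10 genes spanned 1680-fold, and the order of the WT levels was Ngp, Retnlg, Camp, Chil3, Ltf, Mmp8, Prtn3, Elane, Ctsg and Mpo.

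**Figure D3:**
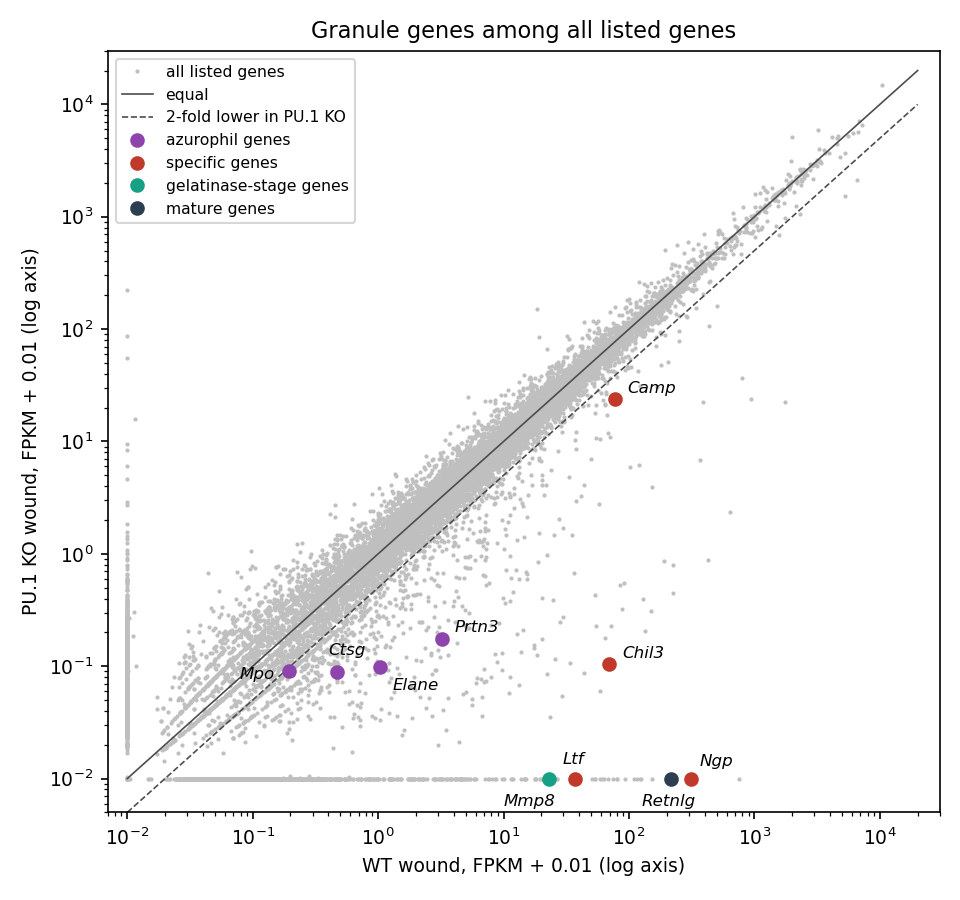
FPKM + 0.01 in WT (horizontal, log axis) against FPKM + 0.01 in PU.1 KO (vertical, log axis) for the 24346 listed genes (grey) with the 10 granule genes in colour by class; the solid line marks equal levels and the dashed line a 2-fold lower level in PU.1 KO. Ltf, Mmp8, Ngp and Retnlg lie on the bottom edge, where genes listed at 0 in PU.1 KO fall, Camp lies just under the dashed line, and the azurophil genes lie in the region of few reads.

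Other genes of granule contents and membranes gave a mixed picture, 16 of 27 lower and none higher, with a median log2 ratio of −3.03. Olfm4, olfactomedin 4, which marks a subset of specific granules, was 58.6 FPKM in WT and listed at 0 in PU.1 KO. Cd177, a surface partner of proteinase 3, was 23.6 and 0.0250 FPKM, and Lyz2, the lysozyme of neutrophils and macrophages, was 85.5 and 0.520 FPKM. Srgn, serglycin, the proteoglycan that holds proteases in granules, was 368 FPKM in WT against 6.83 FPKM in PU.1 KO. Among the 11 that were neither lower nor higher were Hp, haptoglobin, at 2158 and 1250 FPKM, Padi4, the enzyme that citrullinates histones, at 3.05 and 1.83 FPKM, and Cd63, a granule membrane protein of most cells, at 662 and 666 FPKM. In the stefin A family, whose members share sequence so that the division of reads is uncertain, Stfa2l1 was 798 and 36.4 FPKM while Stfa3 was 6146 and 5526 FPKM.

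The 20 listed genes of secreted, cytosolic and surface products of mature neutrophils had a median log2 ratio of −3.24, with 15 lower and none higher. Clec4d, a C-type lectin receptor, was 67.8 FPKM in WT and listed at 0 in PU.1 KO, and Fpr1, the receptor for formylated peptides, was 25.3 FPKM and listed at 0. Csf3r, the G-CSF receptor, was 1.97 FPKM and listed at 0. The other 5 were neither lower nor higher. Of these, Asprv1, a protease of both keratinocytes and neutrophils, was 1250 FPKM in WT against 1665 FPKM in PU.1 KO. Cxcr2 was 11.2 and 7.17 FPKM, and Mme was 1.63 and 1.72 FPKM. Wfdc21 was 251 and 131 FPKM, and Ccrl2 was 0.789 and 0.444 FPKM.

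None of 16 genes that process or restrain granule proteases was lower and 1 was higher, with a median log2 ratio of 0.00. The floor fixed part of this, since Serpina1a, Serpina1b, Serpina1c, Serpina1d, Serpinb1c and A2m were below 0.1 FPKM in both libraries. Ctsc, dipeptidyl peptidase I, which activates elastase, proteinase 3 and cathepsin G, was 68.4 FPKM in WT against 42.3 FPKM in PU.1 KO. Its ratio was 1.62 (1.53 to 1.71). Serpinb1a, an inhibitor of the same 3 proteases, was 121 and 132 FPKM, and Slpi, the secretory leukocyte protease inhibitor, was 171 and 115 FPKM. The 1 higher gene was Serpina1e, a copy of the α1-antitrypsin gene, at 0.248 FPKM in WT against 0.540 FPKM in PU.1 KO, about 4 against 10 reads. Its WT over PU.1 KO ratio of 0.459 had an interval of 0.105 to 1.59, which included 1.

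Of 12 genes for regulators of granule gene expression 3 were lower and none higher. Besides Spi1 these were Cebpe and Gfi1. Cebpe, the C/EBP factor of specific granule genes, was 2.25 FPKM in WT and 0 in PU.1 KO. Gfi1, a transcriptional repressor that acts within the neutrophil lineage, was 0.679 and 0.0257 FPKM. Factors that skin cells also use were inside the 2-fold limit. Cebpa was 102 FPKM in WT against 86.5 FPKM in PU.1 KO, Cebpb was 122 and 124 FPKM, Runx1 was 12.2 and 15.3 FPKM, and Csf3, the gene of G-CSF, was 81.7 and 67.7 FPKM. Of 23 listed relatives of the 10 granule genes by sequence family, 7 were lower and none higher, with a median log2 ratio of −0.36.

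**Figure D4:**
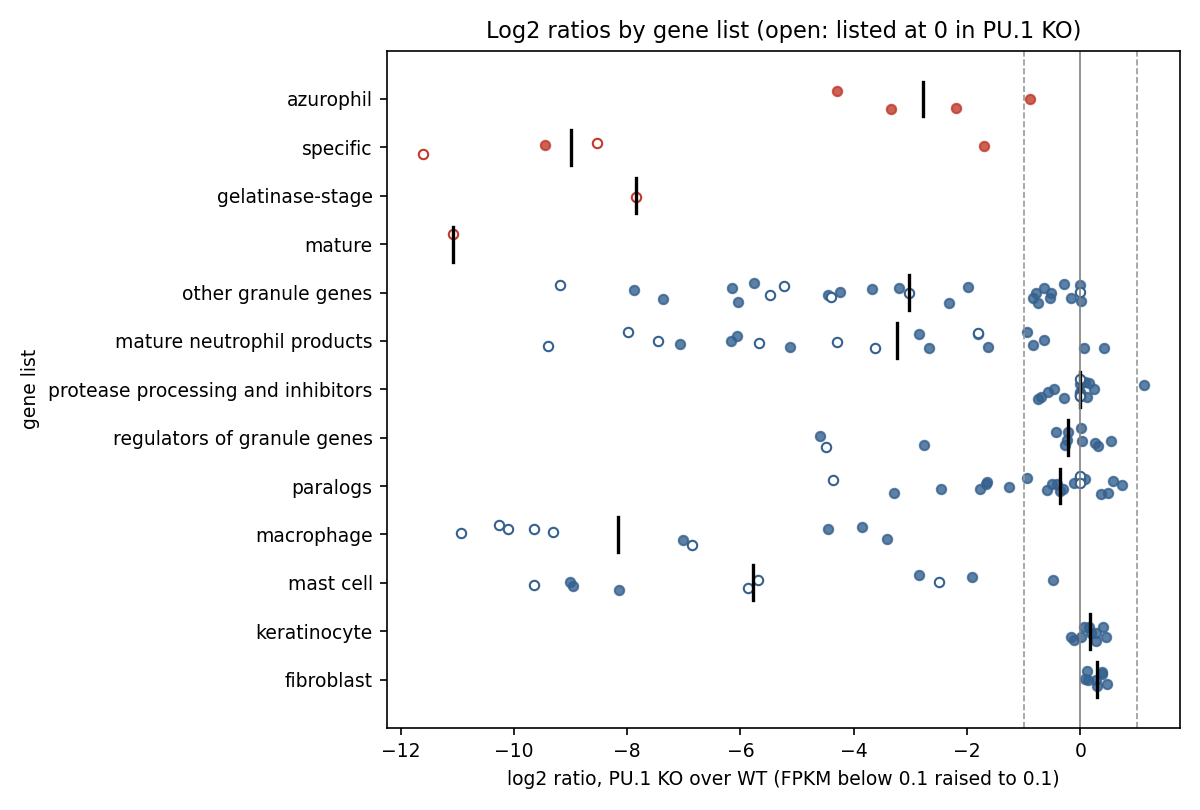
Log2 ratio of PU.1 KO over WT (horizontal; values below 0.1 FPKM raised to 0.1) for each gene of the granule classes (red) and of other gene lists (blue); filled points were above 0 FPKM in PU.1 KO, open points were listed at 0 there, black bars are medians, and dashed lines mark 2-fold differences. The granule classes have medians between −2.77 and −11.07, and the lists of protease processing and inhibitors, keratinocyte and fibroblast genes have medians between 0.00 and 0.29.

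Markers of macrophages and mast cells were mostly lower, as the granule genes were. Fewer markers of eosinophils, basophils, T cells and B cells were called lower, but their levels were low in WT too. All 10 macrophage markers were lower, summing to 708 FPKM in WT against 5.94 FPKM in PU.1 KO, with Adgre1, C1qa, C1qb, C1qc, Ctss and Tyrobp listed at 0 there. Of 8 markers of alternatively activated macrophages, the cells that share Chil3 with neutrophils, 7 were lower, with sums of 466 and 190 FPKM, Clec10a, Mgl2 and Ccl24 at 0 in PU.1 KO, and Arg1 remaining at 128 FPKM. Of 10 mast cell markers 9 were lower, with sums of 752 and 15.5 FPKM, and Hdc among them stands in the list of mature neutrophil products too. Mcpt4, Tpsab1, Ms4a2 and Fcer1a were listed at 0 in PU.1 KO, and the level of Ctsg in WT was 0.00204 of that of the mast cell chymase Cma1. Of 9 eosinophil and basophil markers 3 were lower, with sums of 5.55 and 0.163 FPKM and a highest WT level of 2.19 FPKM. In PU.1 KO 7 of the 9 were listed at 0, and Epx, Prg3, Ear1 and Ear6 were at 0 in both libraries. Of 9 T and B cell markers 4 were lower, with sums of 3.46 and 0.317 FPKM and a highest WT level of 1.24 FPKM. In PU.1 KO 6 of these were listed at 0, and 2 were at 0 in both libraries. Markers below 0.1 FPKM in both libraries cannot be called lower or higher. The part of these cells in the levels of Chil3, Ctsg and the other granule genes was not tested. Nor was it tested for the further genes of granule contents and membranes or the products of mature neutrophils. Markers of red blood cells went the other way, with 2 of 4 higher and sums of 529 and 770 FPKM, as did those of skeletal muscle, with 2 of 6 higher and sums of 7358 and 12620 FPKM. The red blood cell sums came mostly from the highest marker, at 516 and 748 FPKM, which was not called higher. The lowest marker, at 0.0892 and 0.776 FPKM, was called higher.

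The nearest gene of at least 1 FPKM in WT was taken on each side of each granule gene, which gave 18 neighbours outside the set. Of these 3 were lower, 1 was higher and 14 were neither, with a median log2 ratio of −0.07, and among all 12987 genes of at least 1 FPKM in WT 4.54% were lower. The 3 lower neighbours were Cfd beside Elane, the basophil protease gene Mcpt8 beside Ctsg, at 2.19 FPKM in WT against 0.10 FPKM in PU.1 KO, and Retnla beside Retnlg. The higher neighbour was Lrrc2 beside Ltf, at 2.01 and 4.08 FPKM. Camp, Ngp and Ltf share a stretch of chromosome 9, with gaps of 570 kb and 596 kb between them. Ngp and Ltf were listed at 0 in PU.1 KO and Camp was at 23.9 FPKM, while Klhl18, 2914 bases after Ngp, was 12.2 FPKM in WT against 12 FPKM in PU.1 KO.

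Genes with the most similar pair of values were found by the distance over log2(FPKM + 0.1) in the 2 libraries, for the 8 granule genes of at least 1 FPKM in WT. The nearest gene was Rasgrp4 for Elane (distance 0.06), Havcr2 for Prtn3 (0.12), Saa2 for Camp (0.28), Msr1 for Chil3 (0.45), C5ar1 for Mmp8 (0.08) and Tyrobp for Retnlg (0.13). For Ngp it was the microRNA gene Mir215 (0.07), also a very short gene whose reads were not estimated. Tyrobp and Mir215 were among the 3 nearest genes of both Ngp and Retnlg. For Ltf it was the Y-linked Eif2s3y (0.05), at 37.1 and 38.5 FPKM in WT and both listed at 0 in PU.1 KO. Genes listed at 0 in PU.1 KO have the same value there. For Ngp, Retnlg, Mmp8 and Ltf these distances therefore reflect the WT levels alone.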

How the data were processed

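The data were bulk mRNA sequencing of whole skin wounds, 1 library per genotype. The authors made stranded mRNA libraries, read them as single ends, mapped them to mm10 and deposited FPKM values from Cuffnorm 2.2.1. The submitters' processing notes list TopHat2 2.1.1, Bowtie2 2.2.8, SAMtools 0.1.18 and Cuffdiff 2.2.1. The annotation is not given in the sources used here. FPKM carries no read numbers, so these were estimated. Among genes under 2 FPKM in WT, 459 shared the WT over PU.1 KO ratio 1.15 within 0.001, taken as equal read numbers. Depth came from the tallest peak in FPKM times length less 200 nt, taken as 1 read, among 143 genes with a single transcript. Reads were FPKM times the length of the longest GENCODE transcript linked to RefSeq, less 200 nt, over the value of 1 read. Estimates under 10 reads in PU.1 KO were set to whole pairs within 0.5%. A transcript longer than the one the authors used would make the intervals too narrow. Values below 0.1 FPKM were raised to 0.1 before ratios, and a 2-fold difference was counted.

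The genes named are the 10 granule genes, genes of the lists, chromosome neighbours and the nearest genes by pattern. Mir719, Mir215 and Lrrc2 came from rankings or neighbour searches, and Klhl18 was picked after its values were seen. The members and lists were chosen with earlier results of these data known. No test was run. The functions were tested on simulated libraries. Calculations used Python 3.11.15 with scipy 1.17.1 for the intervals, pandas 2.3.3 and numpy 2.4.6 for the tables, and matplotlib 3.10.9 for the plots.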

Additional observations from a re-analysis of the deposited data

How the results depend on the processing

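With 1 library per genotype no library could be left out, and no value has an error between animals. No paired analysis was possible because each genotype has 1 library. The number of granule genes at least 2-fold lower was 9 in the report, 7 with a floor or a pseudocount of 1 FPKM, 10 with a floor of 0.01 FPKM, and 9 under both rescalings of the libraries. It was 10 at a 1.5-fold limit, 8 at 4-fold and 7 at 10-fold. The median log2 ratio of −6.07 moved to −3.11 with a floor of 1 FPKM and −6.91 with a floor of 0.01 FPKM. It was −3.23 with a pseudocount of 1 FPKM and −5.75 with a pseudocount of 0.1 FPKM. Over the 8 genes of at least 1 FPKM in 1 or both libraries, which leaves out Mpo and Ctsg, it was −8.19. Of these 8 only Camp reached 1 FPKM in PU.1 KO and the others passed through WT alone. That filter favours lower ratios, so the −8.19 is no separate check. The floor and the pseudocount set the size of the ratio for genes at or near 0. Of 68 ratios of single genes under these settings 66 were below 0, 2 were at 0 (Mpo and Ctsg with a floor of 1 FPKM) and none was above 0. The number of lower genes among all listed genes was 1057 in the report, 463 with a floor of 1 FPKM, 1778 with a floor of 0.01 FPKM and 461 with a pseudocount of 1 FPKM. It was 1867 at a 1.5-fold limit, 533 at 4-fold and 293 at 10-fold. Depth limits the azurophil genes most, since Mpo and Ctsg rest on 6 and 5 reads in WT.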
